A study of Mus musculus with 4 samples.

Results

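The genes described here are markers of the cells that build small brain vessels: 5 genes of the endothelium (Cldn5, Pecam1, Slc2a1, Abcb1a and Mfsd2a) and 5 genes of the mural cells around it (Acta2, Tagln, Myh11, Pdgfrb and Rgs5). Every probe set that the platform annotation assigned to 1 of these 10 genes was kept, which gave 20 of the 45037 probe sets tested, 8 endothelial and 12 mural. No probe set that named several genes included a member. All 4 brains came from males of the C57BL/6 background, 8 to 9 weeks old, with 2 BCAS1 KO (-/-) and 2 wildtype (+/+) animals bred from heterozygous parents, and the descriptions name the cerebrum. Each brain was hybridised to 1 Affymetrix array, and the values are RMA levels on a log2 scale, so a difference of 1 is a doubling. The labels do not say which part of Bcas1 was disrupted.

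Brain endothelial cells are sealed to each other by tight junctions and carry selective transporters, which together form the blood-brain barrier. Pericytes lie on capillaries and smooth muscle cells wrap arterioles, and both are grouped as mural cells. Pericytes are held at the vessel by endothelial Pdgfb acting on their receptor Pdgfrb, and smooth muscle sets the vessel's tone through contractile proteins. Bcas1 itself is known as a gene of myelinating oligodendrocytes, so the comparison of these vessel genes addresses cells other than those in which the disrupted gene is best known. Vessel cells are a small part of a whole brain extract, and in such bulk RNA fewer cells of a type and less RNA per cell cannot be told apart.

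The 4 arrays had medians of 6.49 to 6.51, and their pairwise correlations across probe sets ran from 0.996 to 0.998. The brightest Bcas1 probe set measured 11.05 and 10.75 in the knockout, against 12.17 and 12.21 in wildtype, while its other probe sets, both under the median level, were 0.77 and 0.64 higher in the knockout. The gap between the 3' and 5' probe sets for control actin, which widens as RNA degrades, was 1.14 and 1.15 in the knockout and 1.09 and 1.12 in wildtype. The second knockout array also had high levels of nasal genes: the 4 nasal markers averaged 4.55 and 7.73 in the knockout arrays and 4.66 and 4.97 in the wildtype arrays. Obp1a had the highest difference of the 4 markers, 2.41 (SE 1.8), and Omp the lowest, -0.050 (SE 0.14). Omp measured 6.17 and 6.56 in the knockout and 6.42 and 6.41 in wildtype, so the high average rests on the other markers. The part of nasal genes in the vessel values was not tested, and the main vessel values are also given without the second knockout array. Of the member probe sets, 18 lay above the lower quartile of all probe sets (4.89) and 15 above the median (6.49), so most of the vessel signal was read from moderate to bright probe sets. The arrays carry no detection calls, and differences of dim probe sets are compressed.

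In the knockout, 4 of the 5 mural genes measured 1.18-fold to 1.26-fold higher by their brightest probe set, and the endothelial genes differed by 1.01-fold to 1.12-fold. None of the 20 member probe sets passed an adjusted p of 0.05 in limma in either direction, and all 20 adjusted p-values were 1. Over all probe sets 0% were called higher and 0.00444% lower, so hardly any feature passed with 2 mice per group. At an unadjusted p under 0.05, limma gave 4 members higher and 0 lower, against 1.82% of all probe sets higher and 1.61% lower. All 4 were mural: Acta2, Tagln, Myh11 and Pdgfrb, with 1 probe set each. Both knockout arrays lay above both wildtype arrays for 6 of the 20 member probe sets, or 30% of them, against 13.9% of all probe sets. They lay below for 1 of the 20, against 13.2% of all. Of the 6, 5 were mural and 1 was endothelial, a contrast that depended on which array was left out. Without the first knockout array the counts were 6 of 12 mural and 7 of 8 endothelial sets. Without the second wildtype array they were 6 mural and 5 endothelial. The contrast stayed without the second knockout array (7 mural and 1 endothelial) and without the first wildtype array (5 mural and 1 endothelial). Separation is easier with an array left out, and the shares of all probe sets were not counted there. Differences were positive for 14 of the 20 member probe sets (70%), against 48.1% of all, and positive between both pairs of same-numbered arrays for 9 of the 20 (45%), against 22.8% of all. Without the second knockout array, the differences of those 4 were 0.23 (Acta2), 0.25 (Tagln), 0.23 (Myh11) and 0.28 (Pdgfrb).

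**Figure D1:**
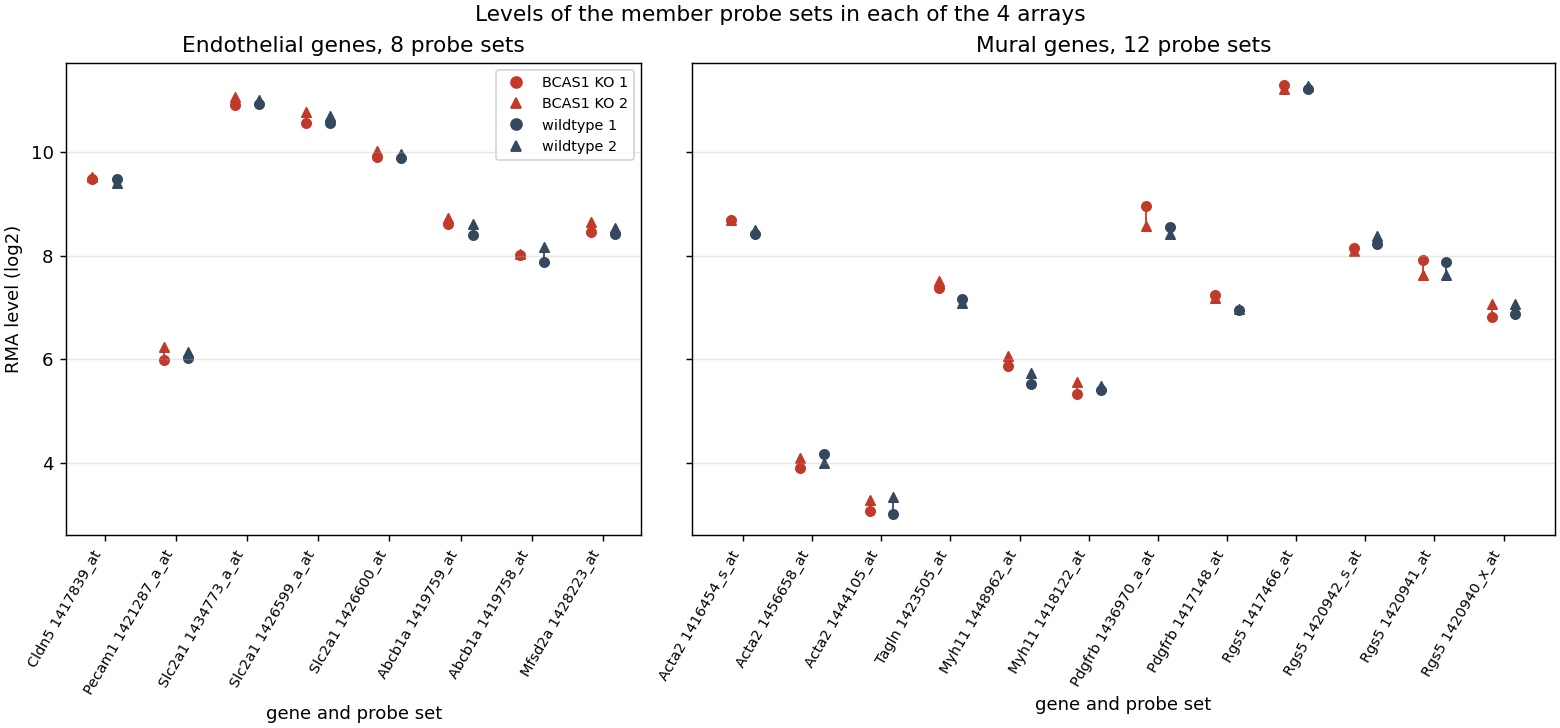
RMA level (log2, vertical axis) of every member probe set (horizontal axis) in the knockout arrays (red, left of each pair) and the wildtype arrays (dark, right), with circles for arrays numbered 1 and triangles for arrays numbered 2. The 2 probe sets of Acta2 near the bottom averaged 4.04 and 3.17, under the lower quartile of 4.89; levels of different probe sets cannot be set against each other.

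Among smooth muscle contractile genes, Acta2, which encodes the actin of smooth muscle filaments, measured 8.69 and 8.70 in the knockout, against 8.43 and 8.49 in wildtype, by probe set 1416454_s_at. The knockout arrays were nearly identical and lay clear of both wildtype arrays. The means were 8.70 ± 0.0071 in the knockout and 8.46 ± 0.042 in wildtype (SD, n = 2 each), a difference of 0.24 (SE 0.071; 95% interval 0.049 to 0.42) or 1.18-fold. The suffix _s_at marks a set whose probes may match transcripts of several related genes, and actins are close in sequence. The other Acta2 probe sets did not show this difference. Probe set 1456658_at measured 3.90 and 4.09 in the knockout and 4.16 and 4.0 in wildtype, and 1444105_at measured 3.06 and 3.28 in the knockout and 3.01 and 3.33 in wildtype. Both lie under the lower quartile of all levels. The genotypes overlapped there, and the differences were -0.085 (SE 0.11) and 0 (SE 0.14).

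Tagln, which encodes the actin-binding protein transgelin (SM22), measured 7.37 and 7.52 in the knockout, against 7.17 and 7.08 in wildtype. The knockout arrays were again both above the wildtype arrays. The difference was 0.32 (SE 0.089; 95% interval 0.088 to 0.55), or 1.25-fold. Myh11, the smooth muscle myosin heavy chain, had the largest difference of all members in probe set 1448962_at, which measured 5.86 and 6.07 in the knockout and 5.53 and 5.73 in wildtype. The difference was 0.34 (SE 0.12; 95% interval 0.031 to 0.64), or 1.26-fold. The second Myh11 probe set, 1418122_at, is assigned to the same transcript record yet measured 5.32 and 5.56 in the knockout and 5.40 and 5.49 in wildtype. Its genotypes overlapped and its difference was -0.0050 (SE 0.11), so the Myh11 signal rests on 1 of its 2 probe sets, both under the array's median level.

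Contractile genes are classically driven by serum response factor with its partner myocardin through the CArG box, and Notch signalling acts on mural genes through the factor RBPJ. The 250 bases before the annotated start were therefore searched, on both strands, for the CArG box and for the RBPJ core TGGGAA. A window was given for 6 of the 10 members (Abcb1a, Acta2, Cldn5, Mfsd2a, Rgs5 and Slc2a1). The strict CArG box was in 0 of the 6 and in 1.47% of all 32851 promoter windows. A relaxed form with up to 1 G or C in its core of A and T, tried after the strict form had no match, was in Acta2 alone of the 6 and in 8.59% of all windows. The core TGGGAA was likewise in Acta2 alone of the 6, and in 21.6% of all windows. The windows of both mural genes given are shown because their values differed: Acta2 measured higher in the knockout by its brightest probe set and Rgs5 did not. Capitals mark the relaxed CArG matches, which begin 84 and 34 bases before the start in Acta2; the second shares 3 bases with the TGGGAA match. The sequences are from RefSeq, build GRCm38.p6, given 5′ to 3′ along the gene, Acta2 from chr19:34255374-34255623 (minus strand) and Rgs5 from chr1:169655251-169655500 (plus strand). A match describes the letters of the window and is no evidence of binding.
Acta2: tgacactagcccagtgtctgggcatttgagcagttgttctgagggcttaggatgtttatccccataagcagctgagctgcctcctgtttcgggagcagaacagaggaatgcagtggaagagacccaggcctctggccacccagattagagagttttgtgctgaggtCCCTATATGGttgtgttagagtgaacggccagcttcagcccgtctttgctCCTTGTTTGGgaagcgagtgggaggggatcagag
Rgs5: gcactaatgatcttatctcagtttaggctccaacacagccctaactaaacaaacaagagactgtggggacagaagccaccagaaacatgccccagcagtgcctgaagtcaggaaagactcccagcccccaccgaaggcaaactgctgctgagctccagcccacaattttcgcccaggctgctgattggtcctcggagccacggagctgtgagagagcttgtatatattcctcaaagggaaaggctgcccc

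Pericyte genes divided. Pdgfrb, the receptor that holds pericytes to the endothelium, measured higher in the knockout in both of its probe sets. Probe set 1417148_at measured 7.24 and 7.19 in the knockout, against 6.95 and 6.97 in wildtype, a difference of 0.26 (SE 0.071; 95% interval 0.071 to 0.44) or 1.19-fold. The nearest arrays of the 2 genotypes lay 0.22 apart, with SDs of 0.035 in the knockout and 0.014 in wildtype (n = 2 each). The brighter set 1436970_a_at measured 8.97 and 8.57 in the knockout, against 8.56 and 8.42 in wildtype, a difference of 0.28 (SE 0.15; 95% interval -0.12 to 0.68). There the second knockout array cleared the first wildtype array only by the last decimal of the table, and without the first knockout array the difference was 0.08. Pdgfrb is also made by fibroblasts of the meninges and of the perivascular space.

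Rgs5, a regulator of G protein signalling that is a classic pericyte marker, did not follow Pdgfrb. Its brightest probe set, 1417466_at, measured 11.31 and 11.22 in the knockout and 11.22 and 11.28 in wildtype, with a difference of 0.015 (SE 0.077; 95% interval -0.19 to 0.22). The genotypes overlapped. The Rgs5 interval overlaps those of Pdgfrb (-0.12 to 0.68 and 0.071 to 0.44) and that of Tagln (0.088 to 0.55). The differences between Rgs5 and these genes were not tested. Of the 3 other Rgs5 probe sets, 1420942_s_at measured 8.15 and 8.10 in the knockout, against 8.22 and 8.39 in wildtype. Its difference was -0.18 (SE 0.089) with the genotypes apart. The remaining sets differed by 0.025 (SE 0.14) and -0.035 (SE 0.12), with overlap. The 4 sets of Rgs5 spanned -0.18 to 0.025, against 0.26 and 0.28 for Pdgfrb.

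**Figure D2:**
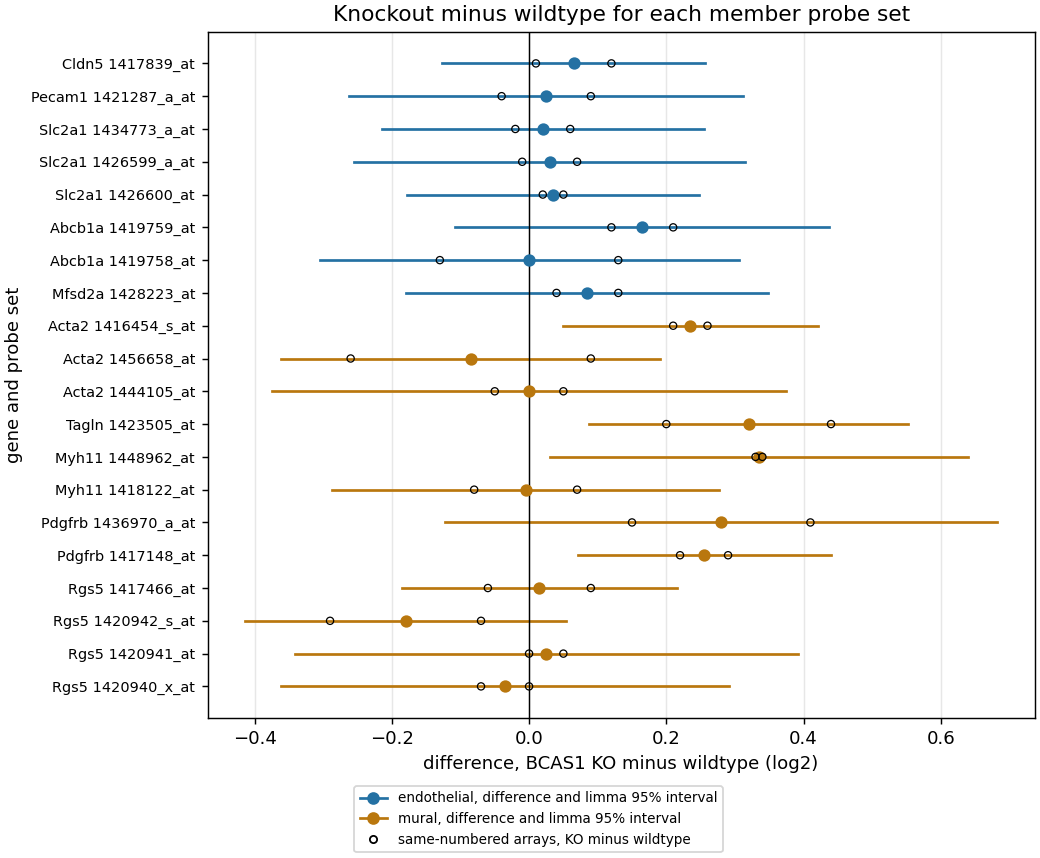
Difference of each member probe set, BCAS1 KO minus wildtype (log2, horizontal axis), with limma's 95% interval as a line, endothelial genes in blue and mural genes in orange; open circles give the differences within arrays of the same number. The intervals of Acta2 1416454_s_at, Tagln, Myh11 1448962_at and Pdgfrb 1417148_at lie above 0 before adjustment, and those of the other 16 probe sets include 0.

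Among endothelial genes the genotypes overlapped for every probe set but that of Cldn5. Cldn5, the main tight junction claudin of brain endothelium, measured 9.49 and 9.53 in the knockout, against 9.48 and 9.41 in wildtype. The gap between the groups was 0.01 at its narrowest, and the difference was 0.065 (SE 0.073; 95% interval -0.13 to 0.26). Pecam1, the adhesion protein CD31 of endothelium, also found on platelets and leukocytes, measured 5.99 and 6.23 in the knockout and 6.03 and 6.14 in wildtype, a difference of 0.025 (SE 0.11).

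Transporters of the barrier were close between the genotypes. Slc2a1, the glucose transporter GLUT1 of endothelium that is also made by astrocytes, had 3 probe sets with differences of 0.020 (SE 0.090), 0.030 (SE 0.11) and 0.035 (SE 0.081). Its brightest set measured 10.91 and 11.07 in the knockout and 10.93 and 11.01 in wildtype, with a 95% interval of -0.21 to 0.25. The arrays numbered 2 were the higher ones in both genotypes, and the same held for every endothelial probe set but that of Cldn5. Mfsd2a, a transporter of lipids that carry docosahexaenoic acid and a suppressor of transcytosis, measured 8.46 and 8.66 in the knockout and 8.42 and 8.53 in wildtype, a difference of 0.085 (SE 0.10).

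Abcb1a, the drug efflux pump P-glycoprotein of mouse brain capillaries, gave the largest endothelial difference, 0.17 (SE 0.10; 95% interval -0.11 to 0.44), in probe set 1419759_at. That set measured 8.61 and 8.73 in the knockout and 8.40 and 8.61 in wildtype, so the first knockout array equalled the second wildtype array. The other Abcb1a set, 1419758_at, assigned to the same transcript record, measured 8.01 and 8.04 in the knockout and 7.88 and 8.17 in wildtype, a difference of 0 (SE 0.12). The wildtype arrays of that set lay on either side of the knockout arrays.

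Over all probe sets the median difference was 0, and it was 0.033 for the 8 endothelial sets and 0.020 for the 12 mural sets. These medians moved when 1 array was dropped: to 0.12 (endothelial) and 0.10 (mural) for the knockout array numbered 1, and to -0.018 and 0.12 for that numbered 2. Dropping wildtype 1 gave -0.013 and 0.07, and dropping wildtype 2 gave 0.09 and 0.11, in the same order. The choice of probe set matters for the mural value: with the brightest set of each gene it was 0.28, against 0.065 for the endothelial genes and 0.0050 over all 18193 genes. By that choice both knockout arrays were above both wildtype arrays for 4 of 5 mural genes and 1 of 5 endothelial genes, against 15.5% of all genes. The 5 mural genes averaged 8.44 and 8.42 in the knockout arrays and 8.18 and 8.20 in the wildtype arrays. The 5 endothelial genes averaged 8.69 and 8.84 in the knockout arrays and 8.65 and 8.74 in the wildtype arrays, with the first knockout array between the wildtypes. Between arrays of the same number, the median knockout minus wildtype difference was 0.26 (number 1) and 0.21 (number 2) for the mural genes, and 0.01 and 0.12 for the endothelial genes. The members were chosen as a set with earlier results of these arrays known, so no p is given for either average.

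**Figure D3:**
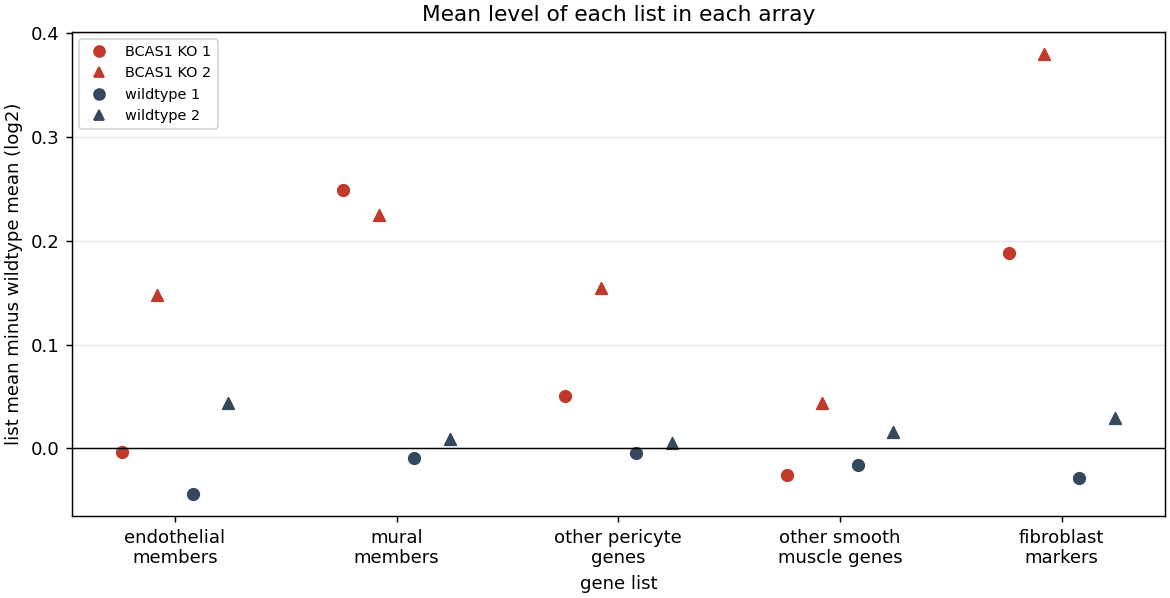
Mean level of 5 gene lists in each array, minus the mean of the wildtype arrays (log2, vertical axis), with knockout arrays in red left of the wildtype arrays in dark. Both knockout arrays sit above both wildtype arrays for the mural members, the other pericyte genes and the fibroblast markers, and not for the endothelial members or the other smooth muscle genes.

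Other genes of the same cells put the members in context. Of 89 listed vascular genes in 7 groups, 86 were measured, and 0 passed an adjusted p of 0.05 in limma in either direction (0.0055% of all genes did). By brightest probe set, 3 reached an unadjusted p under 0.05 with the knockout higher and 1 with it lower, against 1.68% and 1.07% of all genes. Both knockout arrays were above both wildtype arrays for 14 of the 86 genes (16.3%, against 15.5% of all genes) and below for 13 (15.1%, against 12.8%). Over the 7 groups together, both shares were near those of all genes.

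The other pericyte genes had small differences of 1 sign. All 14 measured genes had positive differences, where 51.7% of all genes did, with a median of 0.075 and a range of 0.0050 to 0.23, and for 5 of 14 both knockout arrays lay above both wildtype arrays, against 15.5% of all genes. Between both pairs of same-numbered arrays 9 of the 14 were positive (64.3%), against 25.3% of all genes. Abcc9, a subunit of the potassium channel of pericytes, measured 7.75 and 7.71 in the knockout, against 7.42 and 7.58 in wildtype, a difference of 0.23 (SE 0.087). Cspg4, the proteoglycan NG2 of pericytes and of oligodendrocyte precursors, differed least, by 0.0050 (SE 0.081). The median was 0.16 when knockout array 1 was left out and 0.058 when knockout array 2 was. Foxc1 and Tbx18 of this list are also expressed in the meninges, and Cspg4 is not restricted to pericytes.

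The other smooth muscle genes did not follow Acta2, Tagln and Myh11. Of 13 measured, 7 were positive (53.8%, against 51.7% of all genes) and 6 negative, with a median of 0.025. Both knockout arrays lay above both wildtype arrays for 1 gene (7.69%, against 15.5% of all genes). Smtn, the contractile-filament protein smoothelin, differed by 0.17 (SE 0.15), and Cnn1, calponin, by -0.16 (SE 0.094) from a dim probe set that averaged under the lower quartile. Myl9, the regulatory myosin light chain, and Myocd and Srf, the factors that act on the CArG box, were picked after their values were seen. They differed by -0.025 (SE 0.069), -0.070 (SE 0.094) and -0.060 (SE 0.082), all negative, while 7 of the 13 genes were positive. The positive ones included Tpm1 at 0.11 (SE 0.091) and, from a dim probe set, Actg2 at 0.105 (SE 0.070). The probe set of Myocd was dim as well, and 3 of the 13 genes averaged at or below the lower quartile. Mean levels of these 13 genes were 6.70 and 6.77 in the knockout arrays and 6.71 and 6.74 in the wildtype arrays.

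Endothelial groups centred near 0. Junction genes had a median of -0.0025 over 10 measured genes, with 5 positive and 5 negative. Marveld2, the tricellulin of tricellular junctions, measured 5.67 and 5.73 in the knockout, against 5.99 and 5.93 in wildtype, a difference of -0.26 (SE 0.074), and Cgn, the junction adaptor cingulin, differed by 0.19 (SE 0.092). Transporters and receptors had a median of 0.0050 over 12 genes, with the transferrin receptor Tfrc at 0.18 (SE 0.10) and Ager, the receptor for advanced glycation products, at -0.20 (SE 0.11). Endothelial identity and signalling genes had a median of 0.020 over 21 genes, with 12 positive. Vwf, von Willebrand factor of larger vessels, measured 6.93 and 6.99 in the knockout, against 6.76 and 6.68 in wildtype, a difference of 0.24 (SE 0.076), while Podxl, a sialomucin of the luminal surface, differed by -0.10 (SE 0.077).

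Ligands that act between the vessel cells had a median of 0.018 over 10 genes. Pdgfb, the ligand of Pdgfrb, was picked after its value was seen and differed by 0.030 (SE 0.069; interval -0.15 to 0.21). The Pdgfb interval overlaps those of the Pdgfrb probe sets (-0.12 to 0.68 and 0.071 to 0.44). Whether the ligand and its receptor differed in size of difference was not tested. Angpt1, the pericyte ligand of the endothelial receptor Tek, differed by 0.16 (SE 0.074), and Ndp, the Wnt-pathway ligand norrin, by -0.12 (SE 0.077). Genes of activated or leaky endothelium had a median of -0.015 over 6 genes. Plvap, the diaphragm protein of permeable vessels, measured 7.63 and 7.64 in the knockout, against 7.83 and 7.65 in wildtype, and the adhesion gene Sele differed by 0.13 (SE 0.12) from a dim level.

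**Figure D4:**
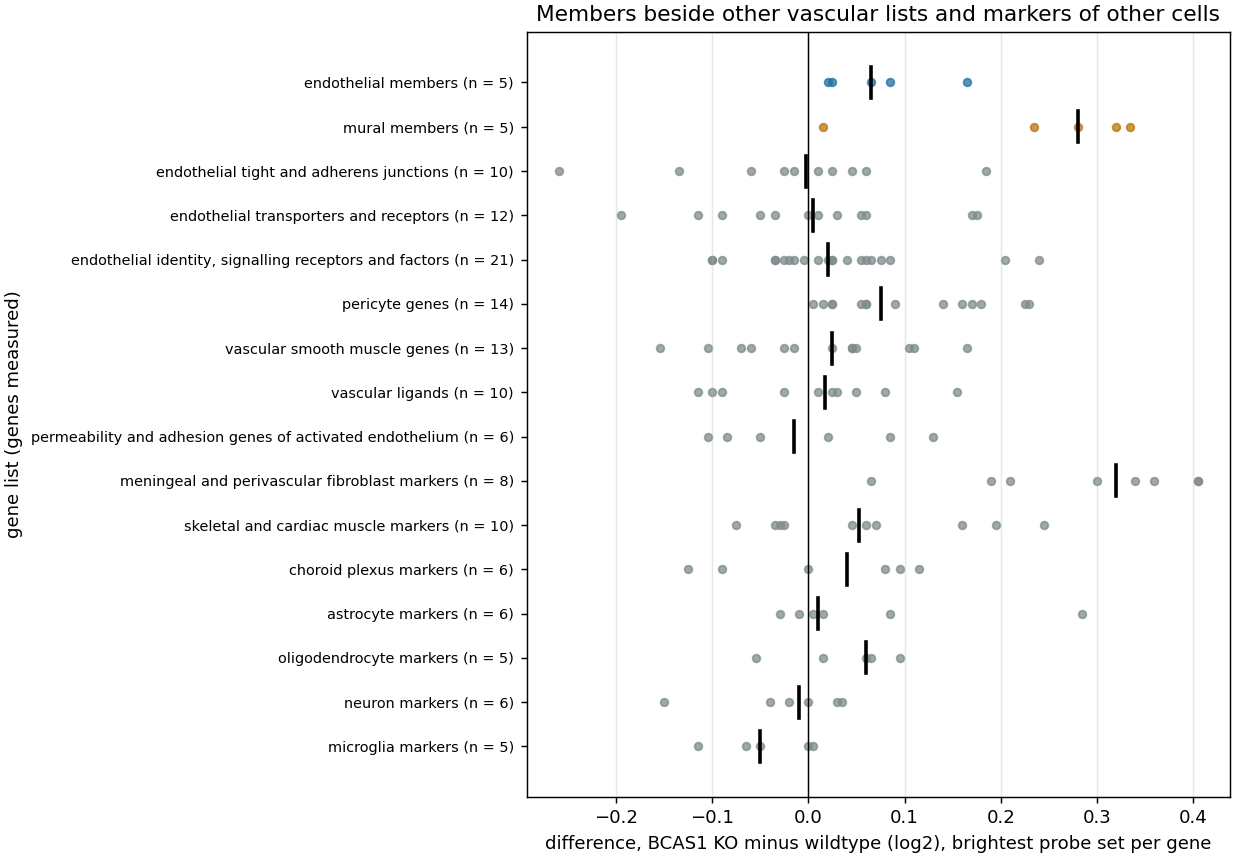
Difference of each measured gene, BCAS1 KO minus wildtype (log2, horizontal axis, brightest probe set), by gene list (vertical axis), with each list's median as a black bar. The medians were 0.28 for the mural members, 0.065 for the endothelial members and 0.32 for the fibroblast markers; blood and nasal lists, which reach 1.30 and 2.41, are not drawn.

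Fibroblast markers were also higher in the knockout arrays. All 8 markers of meningeal and perivascular fibroblasts had positive differences, against 51.7% of all genes, and for 6 of them both knockout arrays lay above both wildtype arrays, against 15.5% of all genes. Their median was 0.32. Their mean level was 8.47 and 8.66 in the knockout arrays and 8.25 and 8.31 in the wildtype arrays. Col1a1, a chain of type I collagen, measured 6.28 and 6.31 in the knockout, against 5.70 and 6.08 in wildtype, a difference of 0.41 (SE 0.14), and Dcn, the proteoglycan decorin, differed least, by 0.065 (SE 0.13). Fmod and Igf2 entered that list with their higher levels already known. Of the 6 others all were positive, 4 had both knockout arrays above, to be read against the same shares, and the median was 0.26. The whole list was chosen with earlier results of these arrays known, so these 6 are not independent of them. Leaving out the second knockout array gave a median of 0.19 for all 8. The part of fibroblasts in the levels of Acta2, Tagln, Myh11 and Pdgfrb was not tested.

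Markers of other tissues that share genes with mural cells were examined likewise. Skeletal and cardiac muscle markers had a median of 0.053 over 10 genes, 6 of them positive, and their mean level was 5.0 and 5.18 in the knockout arrays and 5.02 and 5.04 in the wildtype arrays, so the first knockout array was below both wildtypes. The part of muscle tissue in the mural values was not tested. Myh1, a myosin of fast muscle, differed by 0.25 (SE 0.14) from a dim level, and Myh2 by -0.075 (SE 0.084). Blood cell markers had a median of 0.075 over 9 genes, led by S100a9 at 1.30 (SE 0.27), with Ptprc, the pan-leukocyte CD45, at -0.090 (SE 0.10). Of the 9, 7 were positive and 2 negative. Both knockout arrays lay above both wildtype arrays for 4 of the 9 (44.4%, against 15.5% of all genes). These were S100a9, S100a8 at 1.17 (SE 0.23), Ngp at 0.50 (SE 0.21) and Camp at 0.23 (SE 0.074). The mean level of the blood cell markers was 6.40 and 6.76 in the knockout arrays and 6.30 and 6.16 in the wildtype arrays. Their part in the vessel values was not tested.

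Markers of other brain cells were summarised in the same way. Medians were 0.040 for 6 choroid plexus markers, with Clic6 at 0.12 and Kcnj13 at -0.13. They were 0.010 for 6 astrocyte markers, with Gfap at 0.29 and Gja1 at -0.030, and 0.060 for 5 oligodendrocyte markers, with Cnp at 0.095 and Mbp at -0.055. They were -0.010 for 6 neuron markers, with Syt1 at 0.035 and Tubb3 at -0.15, and -0.050 for 5 microglia markers, with Csf1r at 0.0050 and Cx3cr1 at -0.12. The adjusted p in limma was 1 for every list gene named here.

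The genes whose 4 array values most resembled the mean pattern of the 5 mural members, each centred on its own mean, were Adamts10, Sostdc1 and Tceal8, out of 11630 genes above the median level. Their root mean square distances from that pattern were 0.011, 0.017 and 0.020 on the log2 scale over 4 arrays. Adamts10, a secreted metalloprotease of the extracellular matrix, measured 7.24 and 7.21 in the knockout, against 7.0 and 6.99 in wildtype. Sostdc1, a secreted BMP antagonist, measured 7.66 and 7.68 in the knockout, against 7.41 and 7.43 in wildtype. For the flatter endothelial pattern the nearest genes were Xpnpep3, Rspo3 and Mcu, at distances of 0.0033, 0.0041 and 0.0046. The likeness rests on 4 arrays and is a description.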

How the data were processed

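RNA of 4 mouse brains, 2 BCAS1 KO and 2 wildtype, was measured on 1-colour Affymetrix arrays, 1 array per mouse, from 100 ng of total RNA labelled with a 3' IVT kit per the labels' protocols. The authors deposited 1 log2 level per probe set and array, and the submitters' processing notes name RMA as the method; its software, version and settings are not stated there. Values have 2 decimals. Scanner files were not used here, and array number, not depth, limits the precision.

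Of 45101 rows, 64 control probe sets were left out and 45037 were tested. Genes came from the platform annotation (34945 probe sets with 1 gene, 932 with several, 9160 unnamed here); all 10 members were found in the RefSeq gene table by Entrez number. The 45037 probe sets were fitted together in limma 3.58.1 (R 4.3.3; lmFit, eBayes), two-sided, with Benjamini-Hochberg adjustment and a threshold of 0.05. The fit had 2 residual and 2.74 prior degrees of freedom. Intervals are limma's moderated 95% intervals without adjustment. An exact permutation test of 2 against 2 cannot give a two-sided p under 0.333. The test was checked on simulated data with planted differences far larger than any measured for a member. That check says nothing about differences of the members' size.

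In lists, the probe set with the highest mean over the 4 arrays stood for its gene. Named were all members, the gene with the highest and the one with the lowest difference of each list, Bcas1, and the 3 genes nearest each member pattern; others are marked. The members and lists were chosen with earlier results of these data known. Separate mice underlie the arrays per the labels, so SDs give the spread between 2 mice.

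The alternatives tried were the mouse number as a block, centring each array on its median, a second quantile normalization, an intensity trend with robust variance, dim probe sets left out, other choices of probe set, and each array left out.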

Additional observations from a re-analysis of the deposited data

How the results depend on the processing

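No member probe set passed the adjusted threshold in limma under any of the 9 alternative fits, where adjusted p-values ran from 0.573 to 1. In all 9 the difference kept its sign for Acta2 1416454_s_at (0.21 to 0.27 over arrays left out) and Tagln (0.25 to 0.40). The same held for Myh11 1448962_at (0.23 to 0.44) and both Pdgfrb sets (0.08 to 0.48 and 0.23 to 0.28). It also held for Rgs5 1420942_s_at (-0.27 to -0.095), Cldn5 (0.03 to 0.10) and Abcb1a 1419759_at (0.06 to 0.27). The replicate block, the intensity trend and leaving out dim sets do not change a difference. In each probe set named above the knockout arrays lay to the same side of the wildtype arrays, with a tie in Abcb1a 1419759_at. Leaving out 1 array could therefore not turn a sign, and the kept signs are no check there.

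Leaving out 1 array turned the sign of several small differences. The ranges were -0.095 to 0.15 for Pecam1, -0.06 to 0.10, -0.08 to 0.14 and -0.02 to 0.09 for the Slc2a1 sets, -0.015 to 0.19 for Mfsd2a, -0.18 to 0.01 for Acta2 1456658_at and -0.13 to 0.12 for Myh11 1418122_at. For Rgs5 they were -0.03 to 0.06, -0.12 to 0.17 and -0.17 to 0.095. Abcb1a 1419758_at and Acta2 1444105_at, whose main differences were 0, ran from -0.145 to 0.145 and from -0.16 to 0.16. Myh11 1418122_at also turned to 0.0050 with median-centred arrays and 0.0038 with repeated quantile normalization.

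Over all probe sets, 2 were lower past the threshold, 10 with the intensity trend and robust variance, 0 with the replicate block, and 0 with any array left out. The replicate block left every member difference at its value and changed no member's call. Arrays of the same number deviated together with a correlation of 0.24 across probe sets and 0.42 above the median level; with 2 numbers and no label that says what they share, this does not establish pairing.

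With an array left out, separation of the groups is easier by construction: endothelial sets with the knockout above numbered 1 to 7 (2 with repeated quantile normalization, where the cause was not tested) and below 0 to 3, and mural sets above numbered 5 to 7 and below 1 to 4. The shares of all probe sets with an array left out were not counted, so these counts have no background beside them. The mural median of 0.020 became 0.07 to 0.12 with an array left out, 0.28 by brightest set and 0.13 over sets above the median level. The endothelial median of 0.033 ran from -0.018 to 0.12 with an array left out. The cause was not tested. Of the other vascular medians, junction genes moved to -0.053 and ligands to -0.05 without the second knockout array, smooth muscle genes to -0.035 without the first wildtype array, transporters to -0.03 without the first knockout or the second wildtype array, pericyte genes to 0.16 without the first knockout array, and permeability genes to 0.037 with the mean over all probe sets of a gene.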
